A study of Mus musculus with 19 samples.

Results

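Primary p53/MCA sarcomas are tumors raised in the leg muscle of mice by removing the tumor suppressor p53 and adding the carcinogen 3-methylcholanthrene (MCA). Transcripts of 7 ligands of natural killer (NK) cell receptors were examined in 19 of these tumors. The 7 genes are Raet1d, Raet1e, H60b, H60c and Ulbp1, whose proteins bind the receptor NKG2D, and Pvr and Nectin2, whose proteins bind the receptor DNAM-1. They were chosen by name among the 48795 genes of the table, and all 7 were found there.

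Of the 19 tumors, 11 came from mice labelled Rag2-/-, which lack mature T and B cells and keep NK cells, and 8 from mice labelled Rag2+/-, which carry 1 working copy of the gene. Every mouse, of both genotypes, was injected in the gastrocnemius at 6 to 10 weeks of age with an adenovirus that delivers Cas9 with a Trp53 guide (Adeno-sgp53-Cas9), followed by 300 µg MCA in sesame oil. No treatment followed, and tumors were taken at 70 to 150 mm3. Littermates of both sexes were used as controls. The strain of the mice is not given in the sources used here, and mouse strains differ in which Raet1 and H60 genes they carry, so the values of Raet1d and Raet1e are those of the reference gene models. Each library was made from the bulk RNA of 1 tumor, so it holds tumor cells, host immune cells and muscle of the injection site, and fewer cells of a type cannot be told apart from less RNA per cell. The comparison asks whether ligand transcripts differ between tumors that grew with and without T and B cells.

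NKG2D is an activating receptor of NK cells and of some T cells. Its mouse ligands, the RAE-1, H60 and MULT1 families, are distant relatives of MHC class I molecules, are scarce on most healthy adult cells and can appear on dividing, infected or transformed cells. DNAM-1 (Cd226) is a second activating receptor, which binds PVR (CD155) and nectin-2 (CD112), adhesion molecules found on many cells. TIGIT, an inhibitory receptor, also binds both, and CD96 binds PVR.

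The 5 NKG2D ligand genes lie on chromosome 10 and the 2 DNAM-1 ligand genes on chromosome 7 (GRCm38, GENCODE vM21). Raet1d (ENSMUSG00000078452) spans chr10:22360552-22374139, Raet1e (ENSMUSG00000053219) chr10:22158569-22374139 and H60b (ENSMUSG00000075297) chr10:22158586-22288849, all on the plus strand and overlapping in annotation. H60c (ENSMUSG00000091618) spans chr10:3256208-3267771 and Ulbp1 (ENSMUSG00000079685) chr10:7440362-7473638, both on the minus strand. Pvr (ENSMUSG00000040511) spans chr7:19903578-19921160 and Nectin2 (ENSMUSG00000062300) chr7:19716644-19750483, both on the minus strand.

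Raet1d and Raet1e encode RAE-1 delta and RAE-1 epsilon and are so alike that part of the short reads could be assigned to either. Their windows of 250 bases before and 50 bases after the transcription start (RefSeq, GRCm38.p6) are shown first, with matches to a CCAAT box and to a GC box in capitals on either strand. The Raet1d window lies at chr10:22361644-22361943 and the Raet1e window at chr10:22173247-22173546, both on the plus strand.
Raet1d promoter: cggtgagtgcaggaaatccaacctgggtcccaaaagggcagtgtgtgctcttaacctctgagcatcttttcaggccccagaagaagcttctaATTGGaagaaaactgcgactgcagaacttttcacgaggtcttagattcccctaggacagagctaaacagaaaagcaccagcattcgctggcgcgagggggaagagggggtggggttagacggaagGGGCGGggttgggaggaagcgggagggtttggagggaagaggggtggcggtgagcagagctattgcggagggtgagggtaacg
Raet1e promoter: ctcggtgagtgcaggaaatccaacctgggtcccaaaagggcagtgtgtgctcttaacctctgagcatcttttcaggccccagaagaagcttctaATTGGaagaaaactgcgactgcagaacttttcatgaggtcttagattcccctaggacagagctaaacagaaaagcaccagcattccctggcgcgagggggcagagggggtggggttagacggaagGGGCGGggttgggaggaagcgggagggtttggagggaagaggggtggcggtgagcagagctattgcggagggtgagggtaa
Of 298 aligned bases, 295 were identical. A second Raet1e window, at chr10:22158319-22158618, is not shown. The starts of the 2 coding sequences (Raet1d-201 and Raet1e-201, GENCODE vM21 on GRCm38, plus strand of chromosome 10, 2 exons each) are shown next because they show how little separates the transcripts, with the bases that differ in capitals.
Raet1d coding start: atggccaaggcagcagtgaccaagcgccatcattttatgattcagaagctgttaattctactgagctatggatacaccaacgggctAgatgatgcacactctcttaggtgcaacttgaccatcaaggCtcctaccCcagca
Raet1e coding start: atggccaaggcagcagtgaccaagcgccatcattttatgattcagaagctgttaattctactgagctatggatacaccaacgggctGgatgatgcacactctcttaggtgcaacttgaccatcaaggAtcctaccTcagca
In these 141 bases 3 differed. Over the whole coding sequences, of 747 bases in Raet1d and 753 in Raet1e, 95.8% of aligned bases were identical, whereas H60b and H60c shared 82.7% and Ulbp1 shared 63.5% with Raet1d. Of the stretches of 150 bases, 1 read length, in the Raet1d-201 transcript, 57.6% occurred in a Raet1e transcript with at most 2 mismatches, the number that the Omicsoft aligner in the study's methods allowed. Without mismatches 23.2% did. In the Raet1e-201 transcript alone 39.1% occurred with at most 2 mismatches and 3.74% without. The annotated exons of the 2 genes also overlap by 363 bases, 25.2% of the exonic bases of Raet1d and 16.8% of those of Raet1e. Values of each of these genes are therefore uncertain where reads could go to the other, and their sum is given as well.

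Both Raet1 windows shown held 1 CCAAT box (CCAAT), 158 bases before the start in Raet1d and 156 in Raet1e, and 1 GC box (GGGCGG), 33 and 31 bases before it. The Ulbp1 window held a CCAAT box and no GC box, and the Nectin2 window held 3 GC boxes and no CCAAT box. On either strand, 37.4% of 32851 RefSeq promoter windows held a CCAAT box and 35.7% a GC box. An E2F element (TTTCGCGC, TTTGGCGC, TTTCCCGC or TTTGCCGC) had 0 matches in the 6 windows of Raet1d, Raet1e, H60c, Ulbp1 and Nectin2 and was found in 2.26% of all windows, and an AP-1 element (TGAGTCA or TGACTCA) had 0 matches and was found in 5.20%. The pattern GAANNTTC occurred once in each Raet1 window shown and in 7.86% of all windows. A cell-cycle homology element (TTTGAA) occurred once, in Ulbp1 (17.9% of windows), and the core GCGTG occurred in Nectin2 and the second Raet1e window (32.4%). These are matches of letters in these windows, and the matches of different motifs did not overlap in the windows shown.

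The values are log2 of upper-quartile normalized fragments per kilobase of transcript, scaled to library size (FPKM), after 0.1 was added, so a gene without reads stands at −3.32. The depth recovered from the low values was 24.7 to 33.6 M fragments on genes in 18 tumors and 5.23 M in S41 (Rag2-/-). In S50, S53, S56 and S60 fewer genes stood at 1 fragment than at 6, so a value at or near −3.32 is less certain in these tumors. The labels were checked against Rag2 and lymphocyte genes. Rag2 ran from −2.05 to 0.36, with a median of −0.16, in tumors labelled Rag2-/- and from −2.33 to −0.57, with a median of −1.13, in tumors labelled Rag2+/-, so it was higher in the tumors labelled Rag2-/-, against what the labels would give if the reads came from the deleted part. The part deleted is not given in the sources used here. Cd3e, a chain of the T cell receptor complex, was at −3.32 in all 11 Rag2-/- tumors, whereas every Rag2+/- tumor held it, so this gene goes with the labels. Genotypes below are those of the labels.

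Skeletal muscle RNA set the tumors apart from each other. Over 12 genes of mature muscle fibers, the mean log2 value was 12.1 to 13.3 in 5 tumors (S51, Rag2-/-, and S52, S56, S59 and S60, Rag2+/-) and 4.51 to 10.2 in the other 14 (10 Rag2-/- and 4 Rag2+/-). The mean of 12 cell cycle genes was 1.47 to 3.67 in the 5 muscle-rich tumors and 3.84 to 5.22 in the other 14. The muscle mean was 2.23 lower in Rag2-/- than in Rag2+/- tumors (exact p = 0.0451, where an exact p is that of a two-sided permutation test over all 75582 ways to assign the genotypes). The cell cycle mean was 0.75 higher (exact p = 0.181). The genotype differences of the ligands are therefore given with and without the 5 muscle-rich tumors.

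Raet1d was above the floor in every tumor, but only on 1 estimated fragment in S60 and 3 in S56. Its log2 value ran from −0.28 (S51) through a median of 2.82 to 3.33 (S43) in the 11 Rag2-/- tumors and from −2.79 (S60) through a median of 2.14 to 2.99 (S58) in the 8 Rag2+/- tumors. In normalized FPKM these medians were 6.96 and 4.31, and the estimated fragments behind the values ran from 16 to 352 and from 1 to 326. The groups overlapped over most of their range, and the 3 lowest tumors, S60, S56 and S51, were all muscle-rich. The mean was 2.37 ± 1.18 (SD, n = 11) against 1.04 ± 2.27 (SD, n = 8), a log2 difference of 1.33 with an exact p of 0.110. In the 15 tumors of the published figure it was 1.39 (exact p = 0.0460), and without the 5 muscle-rich tumors it was −0.06 (exact p = 0.919).

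Raet1e had the largest genotype difference of the 7 genes. Its log2 value ran from −0.57 (S51) through a median of 1.75 to 2.71 (S47) in Rag2-/- tumors. In Rag2+/- tumors it ran from −3.32 (S56 and S60) through a median of 0.68 to 1.61 (S58). No Rag2+/- tumor reached the 6 highest Rag2-/- tumors, and the rest overlapped. In S56 and S60 the estimate was 0 fragments, which allows up to 0.162 and 0.107 normalized FPKM (3 fragments each, counting error only). The mean was 1.64 ± 0.98 (SD, n = 11) against −0.13 ± 2.10 (SD, n = 8), a log2 difference of 1.77 with a standard error of 0.68 and an exact p of 0.0182. By limma, fitted on all 12826 genes with a mean log2 value above 0, the unadjusted p was 0.0167 and the Benjamini-Hochberg adjusted p was 0.301, so the call did not hold after correction.

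The Raet1e difference depended on the muscle-rich tumors. Without these 5 tumors it was 0.39 (exact p = 0.298), and with the muscle mean as a covariate in limma it was 0.79 (adjusted p = 0.997, where 2.56% of genes were higher at an unadjusted p under 0.05 and 0.0156% passed in either direction after adjustment). With the cell cycle mean as a covariate it was 0.97 (limma, unadjusted p = 0.0409, adjusted p = 0.493), where 4.32% of genes were higher and 5.71% lower at an unadjusted p under 0.05. Without S41 and S56, the shallow library and the tumor highest in muscle genes, it was 1.30 (exact p = 0.0631), and limma called 2.89% of genes higher and 2.37% lower at an unadjusted p under 0.05. For the sum of Raet1d and Raet1e the difference was 1.61 (exact p = 0.0670), and 0.096 without the muscle-rich tumors (exact p = 0.820). Since 2 tumors stand at the floor, the size also moved with the constant added before the log2, from 0.91 with 1 to 2.61 with 0.01. In the 15 tumors of the published figure the Raet1e difference was 1.70 (exact p = 0.00606, limma adjusted p = 0.217). These 15 keep S52, S59 and S60 of the muscle-rich tumors. Dropping any 1 tumor gave 1.31 to 2.02, always with an exact p under 0.05 (0.00400 to 0.0467). With array weights in limma the Raet1e difference was 1.11 (unadjusted p = 0.0202, adjusted p = 0.266), where 7.83% of genes were higher.

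H60b and H60c encode glycoproteins of the H60 family, of which H60c is known from skin. H60b was near the floor: it ran from −3.32 through a median of −1.73 to −0.29 (S42) in Rag2-/- tumors and from −3.32 through a median of −1.90 to −0.51 (S52) in Rag2+/- tumors. These values rest on 0 to 19 estimated fragments, and 3 Rag2-/- and 2 Rag2+/- tumors held 0. The groups overlapped, with a difference of −0.07 (exact p = 0.889). Without the 5 muscle-rich tumors it was −0.43 (exact p = 0.467). H60c stood at −3.32 in all 19 tumors, 0 estimated fragments in each, which allows from 0.0365 to 0.222 normalized FPKM (3 fragments each), the highest in the shallow S41. Of 10 genes that every cell uses, 0 stood at the floor in any tumor.

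Ulbp1 encodes MULT1, the mouse ligand with high affinity for NKG2D. Its log2 value ran from 0.37 (S51) through a median of 1.60 to 2.67 (S42) in Rag2-/- tumors and from −0.02 (S56) through a median of 1.60 to 3.37 (S53) in Rag2+/- tumors, on 62 to 1450 estimated fragments. The groups overlapped, and the highest and the lowest tumor were both Rag2+/-. The mean was 1.67 ± 0.70 (SD, n = 11) against 1.62 ± 1.20 (SD, n = 8), a log2 difference of 0.05 with a limma 95% interval of −0.82 to 0.92. Without the 5 muscle-rich tumors Ulbp1 was lower in the 10 Rag2-/- tumors left, at 1.80 ± 0.58 (SD, n = 10), than in the 4 Rag2+/- tumors, at 2.66 ± 0.52 (SD, n = 4), which differed by −0.86 (exact p = 0.0250). The same comparison by limma gave an adjusted p of 0.9995, with 2.17% of 12846 genes higher and 1.99% lower in Rag2-/- tumors at an unadjusted p under 0.05. With the muscle mean as a covariate the difference was −0.76 (limma, unadjusted p = 0.00773, adjusted p = 0.997, where 1.65% of genes were lower at an unadjusted p under 0.05).

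Pvr was the most abundant ligand. Its log2 value ran from 3.41 (S46) through a median of 4.20 to 4.89 (S48) in Rag2-/- tumors and from 3.32 (S56) through a median of 3.98 to 4.99 (S53) in Rag2+/- tumors. In normalized FPKM the medians were 18.3 and 16.2, on 291 to 2362 estimated fragments. The groups overlapped across their whole range. The mean was 4.17 ± 0.42 (SD, n = 11) against 4.01 ± 0.63 (SD, n = 8), a log2 difference of 0.17 (exact p = 0.491) with a limma 95% interval of −0.32 to 0.65, and without the muscle-rich tumors it was −0.33 (exact p = 0.163).

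Nectin2 ran from 2.19 (S51) through a median of 3.28 to 3.62 (S42) in Rag2-/- tumors and from 1.48 (S56) through a median of 2.61 to 3.65 (S58) in Rag2+/- tumors, on the log2 scale. The groups overlapped, and 4 of the 5 lowest tumors were Rag2+/-. The mean was 3.18 ± 0.45 (SD, n = 11) against 2.70 ± 0.83 (SD, n = 8), a log2 difference of 0.48 (exact p = 0.119). Without the muscle-rich tumors it was −0.11 (exact p = 0.620).

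**Figure D1:**
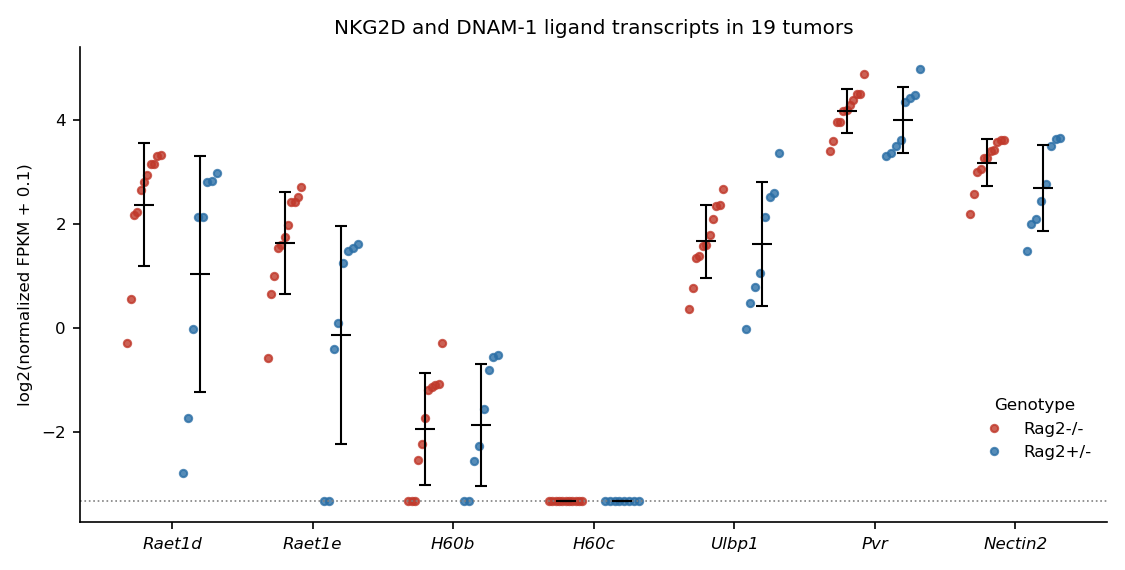
Log2(normalized FPKM + 0.1) of the 7 ligand genes, 1 point per tumor, in 11 Rag2-/- (red) and 8 Rag2+/- (blue) tumors, with the mean and SD in black and the floor of −3.32 as a dotted line. Points within a group are sorted by value from left to right. Pvr lies highest, H60c lies on the floor in all 19 tumors, and the 2 Raet1 genes spread the most.

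On the scale of log2 normalized FPKM, which is per length, the mean levels over 19 tumors fell in the order Pvr 4.10, Nectin2 2.98, Raet1d 1.81, Ulbp1 1.65, Raet1e 0.90, H60b −1.90 and H60c −3.32. Neighbours in this order were compared within tumors by a two-sided permutation test of the signs, adjusted over 6 pairs. Raet1d and Ulbp1 did not differ beyond their spread (mean difference 0.16 ± 1.32, SD over 19 tumors, adjusted p = 0.606). H60c was at the floor in every tumor, so the direction of its pair with H60b was fixed and is not read as a test. The other 4 pairs differed, with Pvr above Nectin2 in 18 of 19 tumors and Ulbp1 above Raet1e in 14 of 19 (adjusted permutation p = 6e-05 and 0.0228). The order pools genotypes, and some gaps differed between them. Ulbp1 was 0.03 ± 0.83 (SD, n = 11) above Raet1e in Rag2-/- tumors and 1.75 ± 1.30 (SD, n = 8) above it in Rag2+/- tumors (exact p of the difference between genotypes 0.00102, adjusted over 6 pairs 0.00612). Without the muscle-rich tumors this gap was −0.06 ± 0.82 (SD, n = 10) and 1.18 ± 0.64 (SD, n = 4), with an exact p of 0.0220 (unadjusted). Raet1e was 3.57 ± 1.20 (SD, n = 11) above H60b in Rag2-/- and 1.73 ± 1.47 (SD, n = 8) in Rag2+/- tumors (exact p = 0.00847, adjusted 0.0254), and without the muscle-rich tumors 3.65 and 2.84 (exact p = 0.268). In S56 and S60, both Rag2+/-, Raet1e and H60b both stood at the floor, which left no gap to measure. H60b was also at the floor in S43, S50 and S51, where the gap is a lower bound. The genotype difference of this pair therefore rests in part on the floor. Raet1d was above Ulbp1 by 0.70 ± 0.93 (SD, n = 11) in Rag2-/- tumors, whereas the gap in Rag2+/- tumors was −0.57 ± 1.47 (SD, n = 8), which did not pass after adjustment (exact p = 0.0267, adjusted 0.0534). Without the muscle-rich tumors these gaps were 0.84 and 0.03 (exact p = 0.101). The spread differed as well. Over the 19 tumors Raet1d had an SD of 1.80 and Raet1e of 1.75, and 96.1% and 95.8% of the genes tested had a lower one. Ulbp1 (0.91), Nectin2 (0.66) and Pvr (0.51) lay nearer the median gene at 0.52. In the 14 tumors that are not muscle-rich the SD was 0.72 for Raet1d, 0.68 for Ulbp1, 0.60 for Raet1e, 0.39 for Pvr and 0.34 for Nectin2, beside 0.34 for the median gene, and the mean levels kept the same order.

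Of the 7 genes, 5 passed the filter on low values, and H60b and H60c did not. Raet1e, with a mean of −0.13 in Rag2+/- tumors, passed only through the Rag2-/- tumors, so the counts below rest in part on the filter. At an adjusted p under 0.05 limma called 0 of these 5, and 4 of 12826 genes tested (0.0312%). At an unadjusted p under 0.05 it called 1, Raet1e, higher in Rag2-/- tumors, where 6.74% of genes were higher and 9.56% lower. By the exact test 1 of these 5 was called too, where 6.89% of genes were higher and 8.05% lower, and 0 had groups that did not overlap (0.0156% of genes). The groups of H60b overlapped too (0.0559% of the genes above the floor in at least 1 tumor did not). Over all 5 NKG2D ligands, H60b and H60c below the filter included, the median difference was 0.05. Over the 3 that passed the filter it was 1.33, which rests in part on the filter. Over the 2 DNAM-1 ligands it was 0.33, and over all genes tested 0.06. Without the 5 muscle-rich tumors the median was −0.058 over the 5 NKG2D ligands and over the 3 that passed. It was −0.22 over the DNAM-1 ligands, beside −0.0070 over all genes. Xist, which is expressed in female cells, had a median of 3.22 in Rag2-/- and −2.51 in Rag2+/- tumors. With Xist as a covariate in limma the difference of Raet1d was 0.74 (unadjusted p = 0.249) and that of Raet1e 1.27 (unadjusted p = 0.0419, where 3.90% of genes were higher). Without S51 the unadjusted count was 3 (Raet1d, Raet1e and Nectin2), where 15.9% of all genes were higher, without S58 it was 3 (10.04% of genes) and without S54 it was 2 (8.14%), and without the 5 muscle-rich tumors it was 0 higher and 1 lower, Ulbp1.

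**Figure D2:**
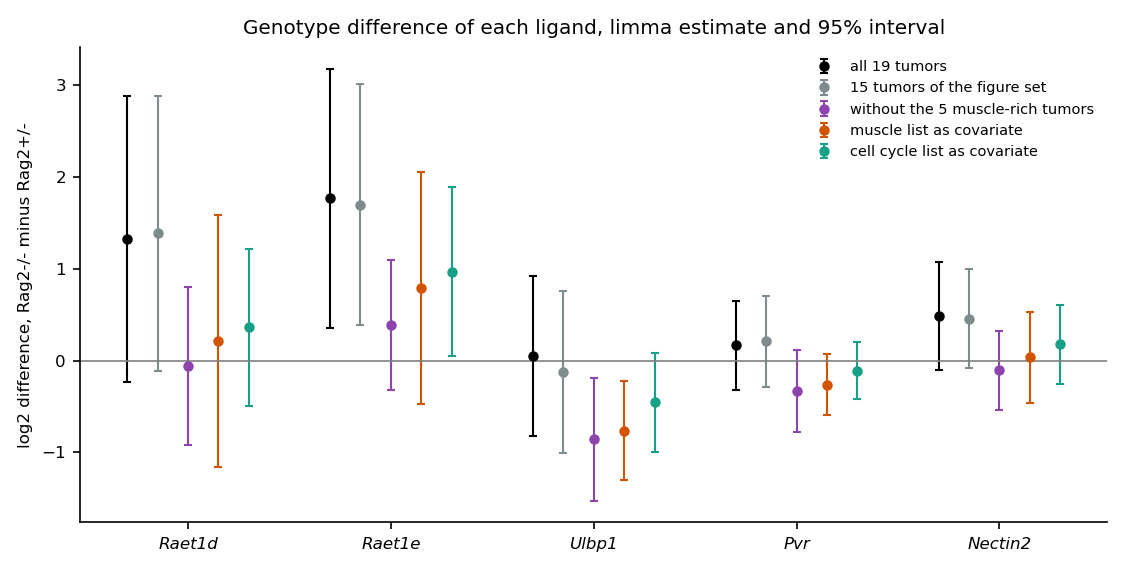
Log2 difference, Rag2-/- minus Rag2+/-, of the 5 ligands that passed the filter, as limma estimates with 95% intervals, for all 19 tumors, the 15 tumors that the published figure shows, the 14 tumors without the muscle-rich ones, and the fits with the muscle or cell cycle mean as a covariate. The Raet1e interval for all 19 tumors lies above 0, from 0.36 to 3.18, and the estimates for Raet1d, Ulbp1, Pvr and Nectin2 lie below 0 without the muscle-rich tumors.

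The muscle-rich tumors were low in all 5 of these ligands. Pvr was at 3.32 to 3.62 in them and at 3.41 to 4.99 in the other 14 tumors. Nectin2 was at 1.48 to 2.45 and at 2.59 to 3.65, without overlap. Raet1e was at −3.32 to 0.10 and at 0.65 to 2.71, without overlap either. Ulbp1 and Raet1d overlapped slightly, at −0.02 to 1.06 against 0.77 to 3.37 and at −2.79 to 2.14 against 0.56 to 3.33. These sets of tumors were formed from the data, so no test is given. With genotype in the limma fit, all 5 ligands fell with the muscle mean (adjusted p of 2.76e-05 to 0.00687), as did 30.4% of the genes tested. This slope spans both sets of tumors. Within the 14 tumors that are not muscle-rich, r with the muscle mean was 0.0027 for Raet1d, 0.15 for Raet1e, 0.0049 for Nectin2, −0.38 for Ulbp1 and −0.46 for Pvr (adjusted permutation p of 0.338 or more). The slope was −0.50 for Raet1d, −0.44 for Raet1e, −0.37 for Ulbp1, −0.20 for Nectin2 and −0.19 for Pvr, in log2 units per log2 unit of the muscle mean.

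**Figure D3:**
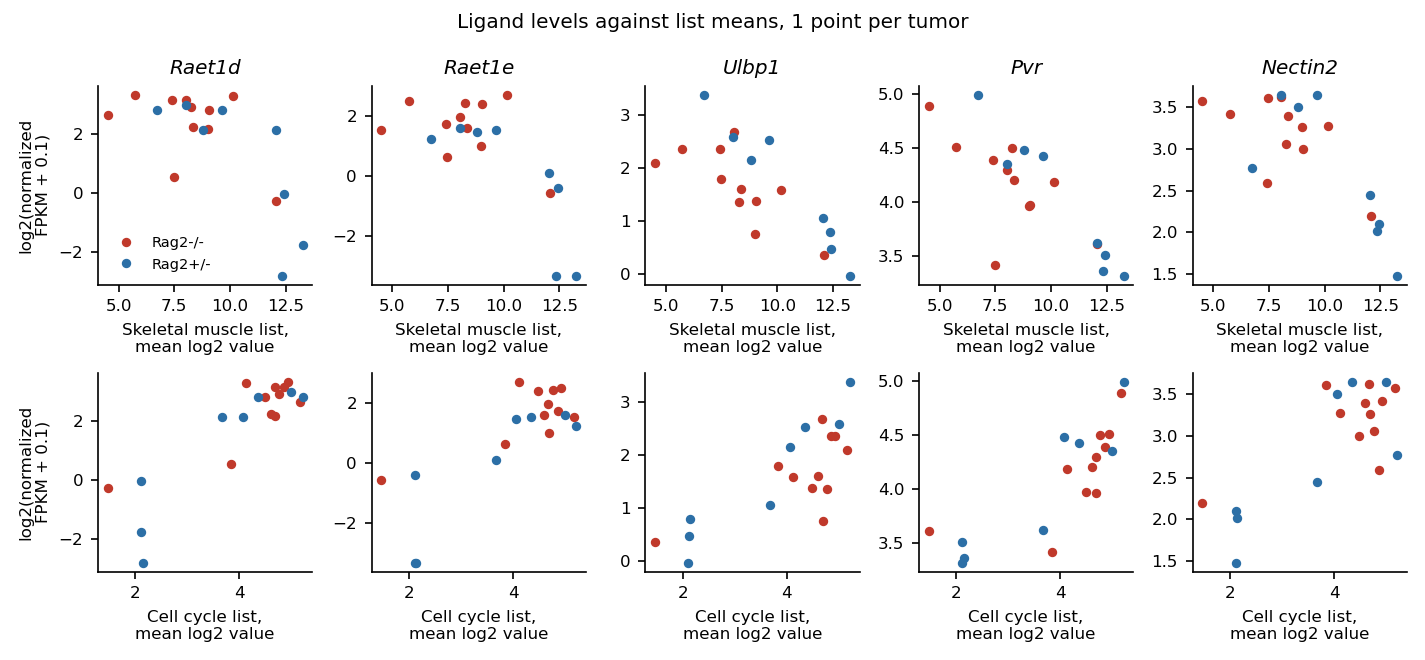
Log2(normalized FPKM + 0.1) of 5 ligands against the mean log2 value of 12 skeletal muscle genes (top row) and of 12 cell cycle genes (bottom row), 1 point per tumor, with Rag2-/- in red and Rag2+/- in blue. The 5 tumors with a muscle mean of 12.1 or more sit at the right of each top panel, and Raet1e and Nectin2 were lower in them than in every other tumor.

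Because these tumors form separate clusters, relations across tumors were measured in the other 14 tumors alone. Of the 10 pairs of the 5 ligands, 1 passed at an adjusted p under 0.05, Raet1d with Raet1e, with r = 0.76 and rho = 0.84 (permutation, adjusted p = 0.0026 and 0.0043). This r was 0.69 without the 2 tumors farthest from the Raet1d median and 0.84 in the 10 Rag2-/- tumors (permutation p = 9.6e-04). In the 12 of these tumors that the published figure shows it was 0.73, which did not pass (permutation, adjusted p = 0.0637). The part of the sequence these genes share in this relation was not tested. The other 9 pairs had r from −0.29 to 0.61 and adjusted permutation p of 0.112 or more.

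The 5 ligands were set against 4 list means, 20 relations in all. Raet1e rose with the mean of 10 NK cell genes, with r = 0.72 and rho = 0.78 (permutation, adjusted p = 0.0423 and 0.0290, n = 14), and 0.912% of the genes tested had a higher r. Without the 2 tumors farthest from the NK median r was 0.75 (permutation p = 0.00601), and in the 10 Rag2-/- tumors it was 0.74 (permutation p = 0.0167). The 4 Rag2+/- tumors are too few for a value. Raet1d, whose reads overlap, had r = 0.36 and rho = 0.60 with the same mean (permutation, adjusted p = 0.483 and 0.185). Pvr rose with the cell cycle mean, with r = 0.71 (permutation, adjusted p = 0.0423) and rho = 0.64 (adjusted permutation p = 0.168), and 89.0% of the genes tested had a lower r. In the 10 Rag2-/- tumors this r was 0.87 (permutation p = 0.00143), and in the 12 tumors that the published figure shows it was 0.56 (permutation, adjusted p = 0.381). Without S41 the adjusted permutation p of both relations was 0.0549. The other 18 relations, with muscle and macrophage means among them, had an adjusted permutation p of r of 0.116 or more.

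The genes whose log2 values followed each ligand most closely over all 19 tumors were found by Pearson's r among 12825 other genes, as a description that includes the muscle-rich tumors. For Raet1d these were Raet1e (r = 0.95), 2010204K13Rik (0.95) and Hpf1 (0.95). For Raet1e they were Raet1d (0.95), Oip5 (0.95) and 2010204K13Rik (0.95). For Ulbp1 they were Tmx3 (0.92), Plekha3 (0.90) and Crk (0.90), and for Nectin2 Cmtm3 (0.94), Tmeff1 (0.93) and Acbd3 (0.90). For Pvr they were Sqle (0.93), squalene epoxidase of cholesterol synthesis, Srebf2 (0.93), a transcription factor of sterol synthesis genes, and Hat1 (0.93), a histone acetyltransferase. In the 14 tumors that are not muscle-rich the r of the same genes was 0.89, 0.89 and 0.83 for Pvr, 0.82, 0.79 and 0.79 for Ulbp1, 0.71, 0.79 and 0.34 for Nectin2, and 0.76, 0.71 and 0.63 for Raet1d. For Raet1e it was 0.76, 0.33 and 0.63.

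The receptors of these ligands were measured in the same libraries. Klrk1, which encodes NKG2D, was at 2.84 in Rag2-/- and 2.80 in Rag2+/- tumors on the log2 scale (difference 0.04, exact p = 0.925), with a limma 95% interval of −0.78 to 0.86. Its adaptors Hcst (DAP10) and Tyrobp (DAP12) differed by 0.71 (exact p = 0.310) and 0.35 (exact p = 0.204). Cd226, which encodes DNAM-1, was at −1.99 in Rag2-/- and −0.04 in Rag2+/- tumors, a difference of −1.95 (exact p = 9.13e-04). Tigit was at −0.65 and 0.83, a difference of −1.49 (exact p = 0.0388). Cd96 was at −0.61 and −0.75 (difference 0.13, exact p = 0.839). Among all genes above the floor in at least 1 tumor, 5.66% were lower and 5.11% higher in Rag2-/- tumors by this test. The exact p of Tigit rose above 0.05 when any 1 of 9 tumors was left out (S42, S50, S51, S52, S53, S54, S55, S58 or S59), up to 0.0829 without S55. Without S56, where Tigit stood at the floor, its difference was −2.08 (exact p = 6.28e-05). In the 15 tumors of the published figure it was −1.98 (exact p = 4.66e-04). Without the 5 muscle-rich tumors the differences of Cd226 and Tigit were −1.83 (exact p = 0.00400) and −2.20 (exact p = 9.99e-04, the smallest possible there). Those of Klrk1 and Cd96 were −0.28 (exact p = 0.521) and −0.23 (exact p = 0.684). T cells also express Cd226 and Tigit, and the T cell list mean was 3.31 lower in Rag2-/- tumors (exact p = 1.32e-05, the smallest possible). The part of T cells in these values was not tested.

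Markers of NK cells moved with genotype as well. Their list mean was 1.07 higher in Rag2-/- tumors (exact p = 0.00757), and without the 5 muscle-rich tumors 0.56 higher (exact p = 0.144). Of its 10 genes 7 were tested by limma and 4 were called higher at an unadjusted p under 0.05, where 6.74% of all genes were: Ncr1 (NKp46) by 1.33, Klrb1c (NK1.1) by 1.02, and the cytotoxic genes Gzma by 1.96 and Prf1 by 1.93. The others tested were not called: Klra4 and Klrd1, higher by 1.12 and 0.80, and Klrc1, with a difference of −0.26. In Rag2-/- tumors the list mean ran from −0.04 to 1.76 and in Rag2+/- tumors from −1.98 to 1.16. The 4 called genes had an adjusted p of 0.297 to 0.301 by limma, and Ncr1, with a mean of −0.35 in Rag2+/- tumors, passed the filter only through the Rag2-/- tumors. With the muscle covariate Ncr1 was at 1.66, Klrb1c at 0.85, Gzma at 2.17 and Prf1 at 1.75. Their unadjusted limma p was 2.94e-05, 0.0392, 7.04e-04 and 0.0106, where 2.56% of genes were higher, and none passed after adjustment. The T cell genes Cd2, Lck and Cd4 were lower at an unadjusted p under 0.05, with differences of −2.47, −1.14 and −1.004, Cd2 alone with an adjusted p under 0.05 (0.0302 by limma, passing in 7 of the 19 fits that left out 1 tumor, and past the filter only through the Rag2+/- tumors, since its mean was −0.36 in Rag2-/- tumors), and so were the endothelial Pecam1 and 9 of the 12 muscle genes, where 9.56% of all genes were lower. Macrophage, cell cycle and fibroblast genes had 0 called by limma at an unadjusted p under 0.05 among 8, 12 and 8 tested, where 16.3% of all genes were called in either direction. Of 6 B and plasma cell genes only Cd79b passed the filter on low values, and their list mean was 2.22 lower in Rag2-/- tumors (−2.39 against −0.17, exact p = 1.32e-05, the smallest possible).

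Among other genes of the ligand pathways few were called. Of 4 nectin family genes, limma called 1 at an unadjusted p under 0.05, Nectin4, which was at 1.27 in Rag2-/- and 0.53 in Rag2+/- tumors on the log2 scale (adjusted p = 0.301). Of 13 genes reported to regulate NKG2D ligands, among them the DNA damage kinases, E2F factors and p53, 2 were called at an unadjusted p under 0.05, where 16.3% of all genes were called in either direction. Atm, a kinase of the DNA damage response, was higher in Rag2-/- tumors by 0.59, and Dicer1, which makes microRNAs, was lower, with a difference of −0.35 (limma, adjusted p = 0.301 for each). With the muscle covariate Nectin4 was at 0.63 (limma, unadjusted p = 0.0337), Atm at 0.32 (limma, unadjusted p = 0.0887) and Dicer1 at −0.23 (limma, unadjusted p = 0.0982). Of 8 proteases and related genes linked to ligand shedding, and of 7 tested among 12 ligands of other NK receptors, limma called 0 at an unadjusted p under 0.05. All 8 shedding genes had a difference above 0, and their list mean was 0.37 higher in Rag2-/- tumors (exact p = 0.0718). The median differences of these 4 lists were 0.12, 0.11, 0.33 and 0.25, beside 0.06 over all genes tested. Raet1a, Raet1b, Raet1c and H60a, which are other NKG2D ligands of mice, had no values under these symbols and were not analysed here.

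**Figure D4:**
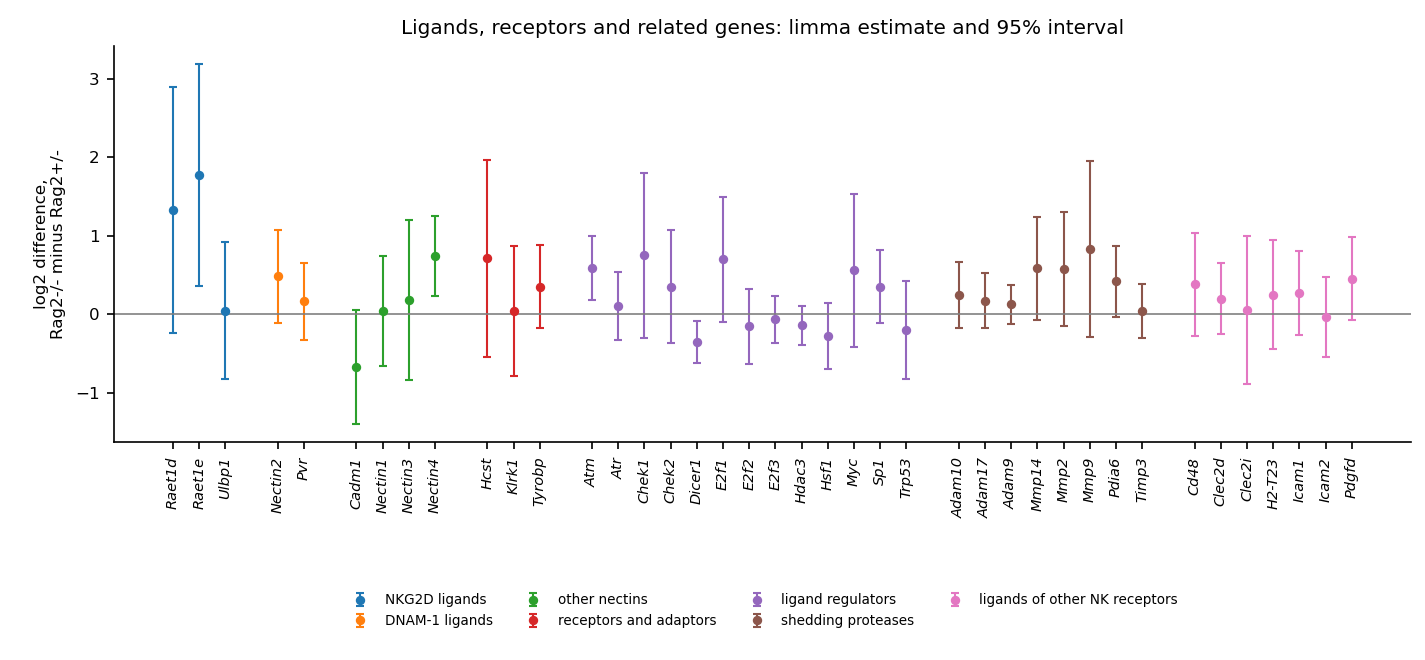
Log2 difference, Rag2-/- minus Rag2+/-, of the ligands, their receptors and related genes that passed the filter on low values, as limma estimates with 95% intervals over 19 tumors, in colors by list. Intervals of Raet1e, Nectin4 and Atm lie above 0 and that of Dicer1 lies below 0; of the others, none excludes 0, and no adjusted p of a gene shown is under 0.05.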

How the data were processed

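RNA was sequenced from 19 tumors by the submitters (NEBNext Ultra II libraries, Illumina, 150 base paired ends). The deposited values are log2 values of FPKM that the authors normalized to the upper quartile, with 0.1 added (from the lowest value, −3.32). The study's methods give values of this kind for neoantigen expression, from reads aligned in Array Studio (Omicsoft aligner, genome B38, at most 2 mismatches, Ensembl R86 gene models). The submitters' processing notes name the tools of a raw count analysis (Trimmomatic 0.36, STAR and HTSeq on mm10), and neither source names this table. Depth is not stated and was estimated from whole-fragment steps of genes with 1 transcript.

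All 19 tumors were compared unpaired, since replicate numbers follow accession order and pair nothing. limma 3.58.1 (R 4.3.3, intensity trend, two-sided) was fitted on the 12826 genes with a mean log2 value above 0, with Benjamini-Hochberg adjustment at 0.05. Single genes were tested by exact permutation over 75582 groupings of the 19 tumors, or over all groupings of the tumors kept. The p-values measure the spread between these tumors. The fit was tested on simulated data. Correlations used 100000 permutations in the 14 tumors without the muscle-rich ones, a change from the planned 19 made after the clusters were seen. Named genes are the 7 ligands, list genes with an unadjusted p under 0.05, Klrk1, Cd226, Tigit and Cd96, and the 3 most alike genes of each ligand. Hcst, Tyrobp, Klra4, Klrd1 and Klrc1 were named after their values were seen. Members and lists were chosen with earlier results of these data known. Alternatives were the 15 tumors of the published figure, each tumor left out, other pseudocounts, filters, normalizations and variance models, and muscle, cell cycle and Xist covariates. The removal of muscle-rich tumors, the removal of S41 and S56, the gaps between ligands by genotype and the sum of Raet1d and Raet1e were added after seeing the data. The rest was computed in Python 3.11.15 with scipy 1.17.1, Biopython 1.88, pandas 2.3.3 and numpy 2.4.6.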

Additional observations from a re-analysis of the deposited data

Results flagged for a closer look

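Among the 8 Rag2+/- tumors, 34 quantities named in the report were examined for a tumor far from the others, and 3 had one, in each case S56, the tumor with the highest muscle mean. Chance flags about 1 in 20 such groups. Its Tigit value was −3.32, with the nearest other tumor at 0.53. Its Prf1 value was −3.32, with the nearest other tumor at −0.46. Its macrophage list mean was 4.74, with the nearest other tumor at 6.02. No ligand gene was among the quantities that stood out. The group of 11 Rag2-/- tumors was not examined in this way.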

How the results depend on the processing

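Under the alternatives other than leaving out single tumors, 183 of the values that answer a comparison kept their direction and their side of the threshold, 32 turned direction, 26 counts moved, 7 no longer passed and 1 newly passed. Those 4 kinds are given here, and the cause was not tested. The log2 difference of Ulbp1, 0.05, turned to −0.12 in the 15 tumors of the published figure, −0.86 without the 5 muscle-rich tumors, −0.25 without S41 and S56, −0.010 with a pseudocount of 1, −0.38 with array weights, and −0.76, −0.45 and −0.29 with muscle, cell cycle and Xist covariates. That of Pvr turned to −0.33 without the muscle-rich tumors and to −0.27, −0.11 and −0.057 with the 3 covariates. Without the muscle-rich tumors Raet1d turned to −0.058 and Nectin2 to −0.11. By the exact test Raet1d (1.39) passed in the 15 tumors, and Raet1e did not pass without the muscle-rich tumors (0.39), without S41 and S56 (1.30) or summed with Raet1d (1.61). The count of ligands higher at an unadjusted p fell from 1 to 0 without the muscle-rich tumors, without S41 and S56 and with the muscle covariate. There 2.17%, 2.89% and 2.56% of all genes were higher (6.74% in the reported fit). With a mean log2 value above 2 required the count was also 0, where 6.92% of all genes were higher. That filter left only Pvr and Nectin2 to test, so Raet1e could not be called. The count lower rose from 0 to 1, Ulbp1, without the muscle-rich tumors and with the muscle covariate.

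Over the pathway and cell type lists, the count higher (6) was 15 in the 15 tumors (10.996% of all genes), 1 with a mean above 2 (6.92%) and 10 with array weights (7.83%). The filter at 2 took Nectin4, Atm, Ncr1, Klrb1c and Prf1 out of the test. The count lower (14, with 9.56% of all genes) was 5 without the muscle-rich tumors, 6 without S41 and S56, 27 with no filter on low values, 8 with quantile normalization, 9 with array weights, and 4, 8 and 5 with the muscle, cell cycle and Xist covariates, and the share of all genes lower was 1.99%, 2.37%, 6.76%, 8.89%, 8.33%, 1.65%, 5.71% and 3.62% in the same order. The count at an adjusted p under 0.05 (1) was 2 in the 15 tumors, without S41 and S56 and with array weights, 9 with no filter, and 0 in the other 5 settings that moved it. Klrk1 turned to −0.44 in the 15 tumors, −0.28 without the muscle-rich tumors, −0.29 without S41 and S56 and −0.20 with array weights, and Cd96 to −0.12, −0.23 and −0.44 in the first 3 of these. With the muscle covariate Atp2a1 turned to 0.081, Ckm to 0.065, Tnnc2 to 0.17 and Tnnt3 to 0.19.

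Among correlations, in the tumors of the published figure that are not muscle-rich, r was 0.73 for Raet1d with Raet1e and 0.56 for Pvr with the cell cycle mean, no longer past the threshold, and turned sign for Raet1d with Nectin2 (0.0082), Raet1e with Pvr (−0.22), Ulbp1 with Nectin2 (0.14), the muscle mean with Raet1d (−0.11) and Nectin2 (−0.049), the cell cycle mean with Raet1e (−0.25), and the macrophage mean with Raet1d (0.18), Raet1e (0.33) and Ulbp1 (0.15). Without S41 r was 0.71 for Pvr with the cell cycle mean and 0.76 for Raet1e with the NK mean, both no longer past the threshold, and turned sign for Ulbp1 with Nectin2 (0.10) and the muscle mean with Nectin2 (−0.073).

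Leaving out 1 tumor at a time, the log2 difference ran from 0.78 to 1.60 for Raet1d, 1.31 to 2.02 for Raet1e, −0.28 to 0.12 for H60b, −0.18 to 0.30 for Ulbp1, 0.07 to 0.31 for Pvr, 0.31 to 0.62 for Nectin2, −0.24 to 0.19 for Klrk1 and −0.24 to 0.40 for Cd96. Nectin2 had an exact p of 0.0498 without S58. The ligand count higher ran from 1 to 3, and the list counts from 6 to 28 higher (28 without S51, where 15.9% of all genes were higher and 16.5% lower), 6 to 18 lower and 0 to 3 at an adjusted p under 0.05. No paired analysis was possible because the labels number no replicates: the numbers used here follow accession order within each genotype and pair nothing. The litter of each mouse is not given in the sources used here, so litter was left out of every test. Depth limits H60b and H60c, and the value at the floor is uncertain in S41, S50, S53, S56 and S60.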
